A study of Mus musculus with 6 samples.

Results

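TRIM genes encode ubiquitin ligases and related proteins with a shared tripartite motif: a RING finger, B-box zinc fingers and a coiled coil at the N-terminal end, followed by a C-terminal domain that differs between classes. The members here are all genes with a TRIM symbol (Trim, a number and at most a letter) on the array, taken from probe sets that the platform annotates to exactly 1 gene, and Mid1, which belongs to the same family under another name, is not among them. There are 58 such genes of 18193 genes in all, measured by 111 probe sets. A gene's value is that of its brightest probe set, judged by the average of all 6 arrays, and 31 of the 58 have several probe sets.

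RNA from frozen cerebellar tissue of daDREAM transgenic mice and of wild-type mice was hybridised to Affymetrix Mouse Genome arrays, with 3 independent biological replicates and 1 array each per genotype. DREAM, encoded by Kcnip3, is a calcium-sensing transcriptional repressor, and daDREAM is a mutant form that keeps repressing when calcium is high. The sources used here name no strain, age, sex or treatment, no promoter for the transgene, and do not say whether animals were pooled. The array names of the daDREAM samples share a prefix whose meaning is not given. Values are log2 expression, and every difference is daDREAM minus wild type, so 1 unit is a doubling of signal. Signal also depends on how well each probe binds. Words such as bright and dim describe signal only, and do not rank genes by amount of RNA.

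Kcnip3 itself did not tell the genotypes apart: its brighter probe set had 8.95, 9.42 and 9.33 in daDREAM and 9.02, 9.08 and 9.31 in wild type, which overlapped. Whether this probe set matches the transgene's transcript is not known, so it is no check of the labels. Among the 6 arrays, the correlations across probe sets were 0.973 to 0.990 within daDREAM, 0.989 to 0.997 within wild type and 0.981 to 0.993 between genotypes. The mean of 18 hybridization control probe sets, spiked RNA that does not come from the tissue, was 9.47 to 10.47 in daDREAM and 8.99 to 9.48 in wild type. Cerebellar neuron markers were bright in both genotypes, with a mean level of 10.94 to 11.07 in daDREAM and 11.0 to 11.06 in wild type over 12 genes. All 7 choroid plexus markers were higher in daDREAM without any passing the adjusted test, with a mean level of 6.65 to 6.95 in daDREAM and 6.12 to 6.45 in wild type. Tissue arrays cannot tell fewer cells of a type from less RNA per cell. The part that array quality or choroid plexus content plays in the values below was not tested.

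TRIM proteins pass ubiquitin from a conjugating enzyme to a substrate, and the C-terminal domain is the main contact with that substrate. In neurons the family is known for microtubule-binding members of the COS-FN3 class, the class of Mid1, and for NHL-domain members that act in axons and synapses. Nuclear members with a PHD finger and a bromodomain silence chromatin, and many members with a SPRY domain take part in antiviral defence and are induced by interferon.

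Promoter windows, 250 bases before to 50 bases after each transcript start, were found for 47 of the 58 genes (RefSeq, GRCm38.p6). The interferon response element was searched as GAAANNGAAA on both strands, and a match is a description of letters, not a site. It lay in the windows of 9 of the 47 TRIM genes, 19.1%, against 3.99% of all 27025 genes with a window. The 9 include near-identical copies, counted separately, and were not tested as a group. Of these 9, 6 belong to a run of neighbouring genes, Trim6, Trim34a, Trim5, Trim12a, Trim12c, Trim30a and Trim30d, with 4 other protein-coding genes among them and no match in Trim6. The 30 bases around each match in that run, and in Trim21, are shown so that the copies can be compared, with the match in capitals and the strand being that of the gene. Matches on the opposite strand read TTTCNNTTTC.
Trim34a (chr7:104244457-104244486, +): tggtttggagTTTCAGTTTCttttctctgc
Trim5 (chr7:104288136-104288165, -): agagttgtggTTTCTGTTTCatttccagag
Trim12a (chr7:104315466-104315495, -): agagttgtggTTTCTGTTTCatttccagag
Trim12c (chr7:104353359-104353388, -): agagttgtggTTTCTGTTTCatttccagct
Trim30a, first window (chr7:104446104-104446133, -): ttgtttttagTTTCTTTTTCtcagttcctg
Trim30a, second window (chr7:104465210-104465239, -): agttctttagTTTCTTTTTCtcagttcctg
Trim30d (chr7:104507871-104507900, -): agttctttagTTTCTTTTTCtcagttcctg
Trim21 (chr7:102565447-102565476, -): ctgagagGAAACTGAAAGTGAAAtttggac
The windows of Trim5 and Trim12a were identical over all 30 bases, and that of Trim12c shared 28 of the 30 with either. The second window of Trim30a and that of Trim30d were identical over all 30 bases, and the first shared 26 of the 30 with either, while Trim34a and Trim5 shared 18. Trim21 carries 2 overlapping matches. Transcripts of such close copies may bind the same probes, so the values of the genes in this run are uncertain as to which copy they measure. The remaining 2 genes with a match were Trim26 and Trim2.

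No TRIM gene differed between the genotypes after adjustment. Limma, fitted over all 45037 probe sets with Benjamini-Hochberg adjustment, gave 0 of 58 genes with an adjusted p under 0.05, where the share over all genes was 0%, and the smallest adjusted p was 0.998. At an unadjusted p under 0.05 there was 1 gene, Trim37, which is 1.72%, against 1.42% of all genes and 0.951% in its direction. The genotypes did not overlap at 2 genes, Trim27 and Trim41, both lower in daDREAM, which is 3.45%, against 5.59% of all genes and 2.04% in that direction. In all directions together, the first share lay above and the second below that of all genes, on counts of 1 and 2 genes. Over the 58 genes the differences ran from -0.32 to 0.44 with a median of -0.01, beside a median of 0.01 over all genes. There were 26 genes with a positive and 32 with a negative difference, and 5 genes, 8.62%, differed by at least 0.25, beside 10.5% of all genes. The median half-width of the 95% intervals was 0.34, which is 1.27-fold.

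**Figure D1:**
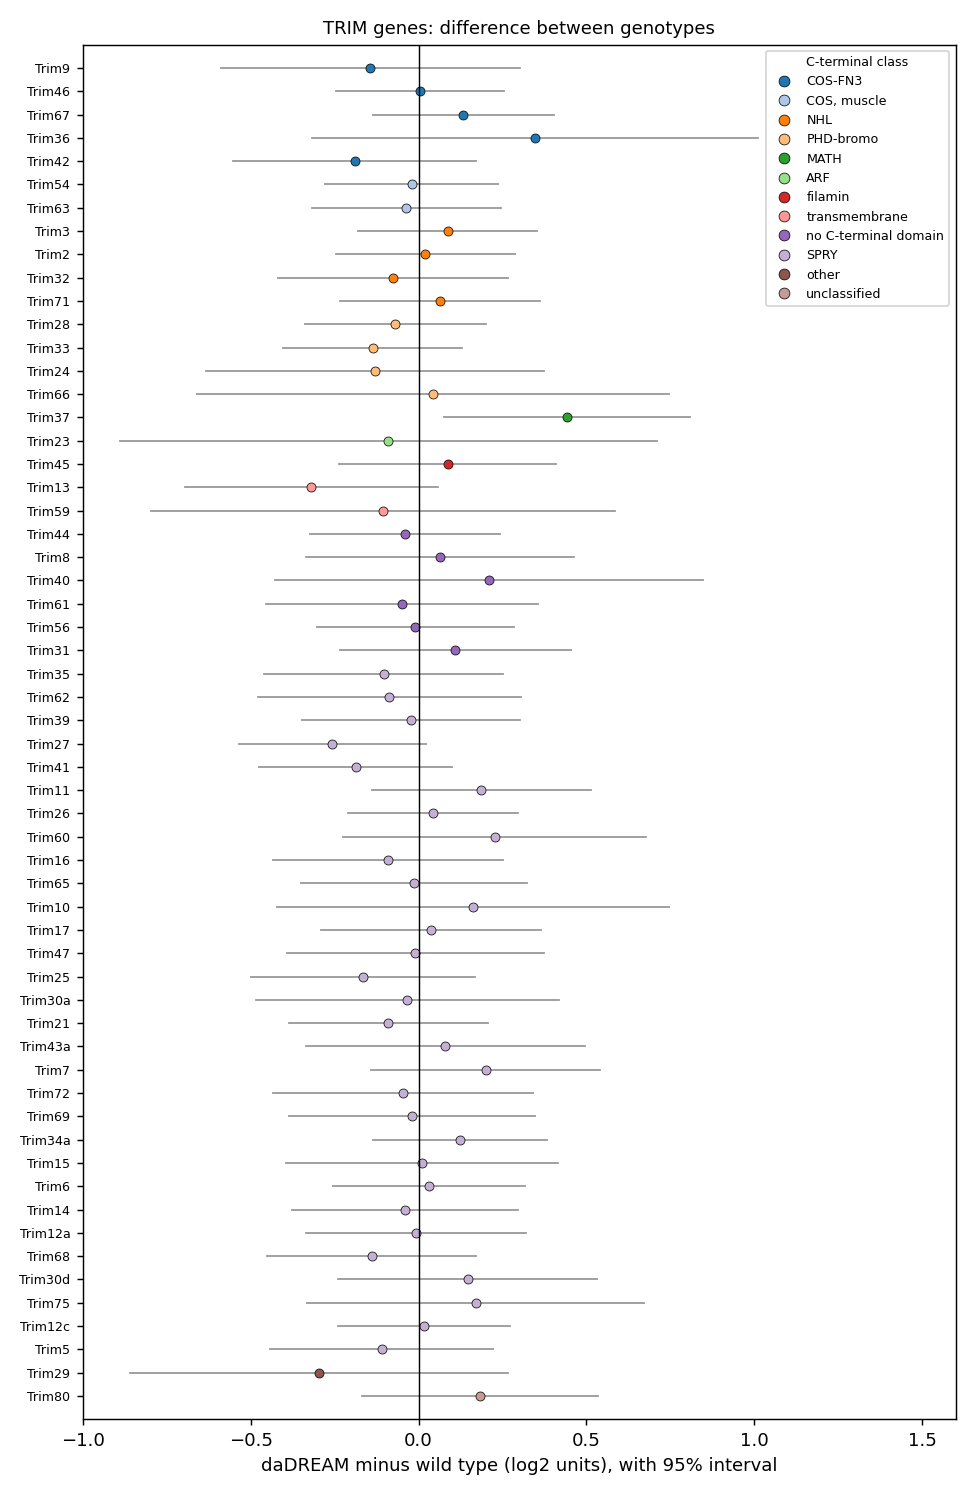
Difference of each of the 58 TRIM genes (x axis, daDREAM minus wild type in log2 units), with genes down the page by C-terminal class and, within a class, by mean signal. Points are limma estimates and lines their 95% intervals; Trim37 is the gene whose interval, 0.08 to 0.81, lies clear of 0.

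The counts depended on daDREAM replicate 1. Without it 11 of 58 genes had an unadjusted p under 0.05, against 16.5% of all genes, and 23 did not overlap, against 34.0% of all genes, with 0 passing the adjusted limma test. With any other array left out, 0 to 1 genes had an unadjusted p under 0.05, where 0.506% to 2.55% of all genes did, and 5 to 8 did not overlap, where 8.93% to 18.1% of all genes did not.

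In the COS-FN3 class, which binds microtubules, 5 members were measured and none passed the adjusted limma test. Trim46, which organises parallel microtubules at the start of the axon, had 7.42, 7.52 and 7.51 in daDREAM and 7.5, 7.5 and 7.44 in wild type. Its 6 values lay within 0.10 of each other, and the difference was 0.00 with a 95% interval from -0.25 to 0.25. Trim9, a brain-enriched ligase of axon guidance that binds the netrin receptor DCC, had 9.63, 8.98 and 9.01 in daDREAM and 9.43, 9.46 and 9.16 in wild type. Replicate 1 of daDREAM was the highest of the 6 and the other daDREAM arrays were the lowest, with a difference of -0.14 (interval -0.59 to 0.30). All 4 of its probe sets averaged 5 or more and had differences of -0.24 to -0.14, and all were higher in daDREAM replicate 1 than in replicate 3, by 0.53 to 1.36.

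Trim67, the close relative of Trim9, had 6.63, 6.65 and 6.46 in daDREAM and 6.42, 6.53 and 6.39 in wild type. Of the daDREAM arrays 2 lay above all wild-type arrays and 1 among them, with a difference of 0.13 (interval -0.14 to 0.40). Trim36, known for a role in the acrosome of sperm, had 4.70, 5.37 and 5.89 in daDREAM and 5.0, 4.67 and 5.25 in wild type. Its daDREAM arrays spread over 1.19 log2 units and spanned nearly the whole wild-type range, with a difference of 0.35 (interval -0.32 to 1.01). The other probe set of Trim36, just under 5 in mean, differed by -0.02. Trim42 was dim, with means of 3.23 ± 0.21 in daDREAM and 3.42 ± 0.20 in wild type (SD, n = 3 each).

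The NHL class holds ligases of neuronal and stem cell differentiation, and 3 of its 4 members had a mean above 10 in this tissue. Trim2, which ubiquitinates neurofilament light chain and whose loss causes neurodegeneration in mice, had 10.31, 10.25 and 10.25 in daDREAM and 10.32, 10.31 and 10.12 in wild type. The arrays of the genotypes overlapped throughout, with a difference of 0.02 (interval -0.25 to 0.29), and its 6 probe sets differed by -0.15 to 0.09. Trim3, a ligase of the postsynaptic density, had 10.28, 10.49 and 10.47 in daDREAM and 10.31, 10.35 and 10.32 in wild type. Replicate 1 of daDREAM was the lowest and the other daDREAM arrays the highest, with a difference of 0.09 (interval -0.18 to 0.35).

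Trim32, which acts in neural progenitors and is mutated in a human limb-girdle muscular dystrophy, had 10.25, 9.95 and 10.12 in daDREAM and 10.29, 10.32 and 9.94 in wild type. Each genotype held high and low arrays, and the difference was -0.08 (interval -0.42 to 0.27). Trim71, a stem cell factor repressed by the let-7 microRNA, was dim, with 4.26 ± 0.10 in daDREAM and 4.19 ± 0.16 in wild type (SD, n = 3 each). Over the class the lowest interval bound was -0.42 and the highest 0.36.

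Trim37, a MATH-domain ligase that controls centriole number and is mutated in mulibrey nanism in humans, had the smallest p of the family. Its brightest probe set had 9.35, 9.80 and 9.79 in daDREAM and 9.11, 9.13 and 9.37 in wild type. Replicates 2 and 3 of daDREAM stood above every wild-type array, while daDREAM replicate 1 lay just below wild-type replicate 3. The difference was 0.44 (interval 0.08 to 0.81), a fold of 1.36, with an unadjusted p of 0.0235 and an adjusted p of 0.998 by limma. Its other 4 probe sets did not share it: from the next brightest to the dimmest they differed by -0.11, -0.01, -0.28 and 0.14. The difference was 0.04 with the probe sets averaged and -0.01 without the probe sets whose names mark several transcripts. It was 0.02 once the fit took in each array's hybridization control level. With 1 array left out it ranged from 0.37 to 0.59, and the unadjusted p was above 0.05 without daDREAM replicate 2, daDREAM replicate 3, wild-type replicate 1 or wild-type replicate 2.

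Of 111 TRIM probe sets, 0 passed the adjusted test, against 0% of all probe sets, and 2 had an unadjusted p under 0.05, 1.80% against 1.81% of all probe sets. The genotypes did not overlap at 6, 5.41% against 6.01%, 3 of them higher and 3 lower. Of 15 genes with several probe sets of a mean of at least 5, 2 had all of them higher in daDREAM, 8 had all of them lower and 5 had mixed signs. Each direction held small differences, down to 0.04 for Trim26 and -0.02 for Trim41. By the brightest probe set, 5355 of all 11734 genes with a mean of at least 5 were higher and 6281 lower. Probe sets of a gene are not replicates, since they share the same RNA.

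**Figure D2:**
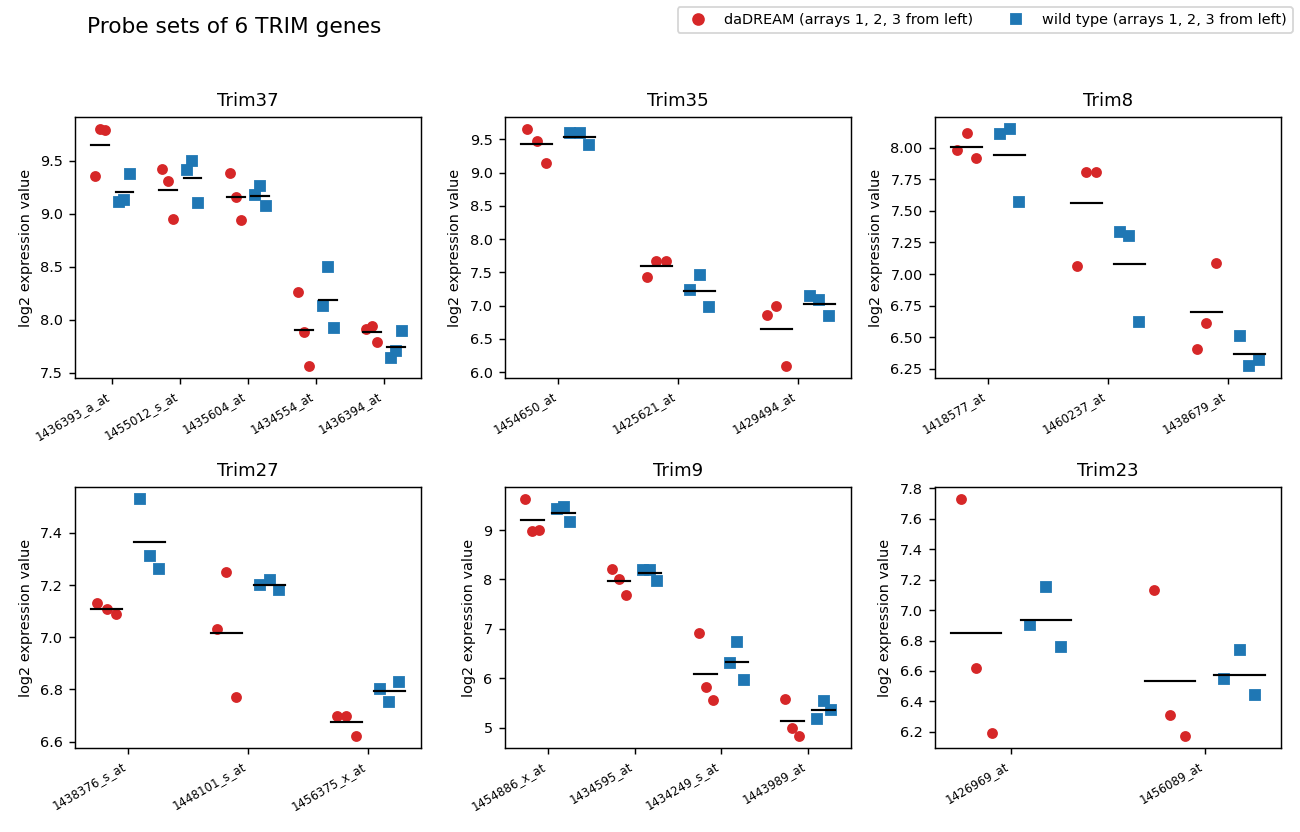
Log2 expression (y axis) on each array for the probe sets, brightest first, of Trim37, Trim35, Trim8, Trim27, Trim9 and Trim23 with a mean of at least 5. Red circles are daDREAM arrays, blue squares wild-type arrays, bars their means; the probe sets of Trim37 and of Trim35 differ in sign, while those of Trim9 and Trim23 are all highest in daDREAM replicate 1.

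Trim35, a SPRY member and the brightest of that class by its probe set, showed the widest spread among its own probe sets. Its brightest had 9.66, 9.48 and 9.15 in daDREAM and 9.60, 9.59 and 9.41 in wild type, which overlapped, with a difference of -0.10 (interval -0.46 to 0.25). The next brightest differed by 0.36 (unadjusted p = 0.0457, adjusted p = 0.998 by limma) and the dimmest by -0.38, so the signs oppose each other within 1 gene. Trim8, which binds the cytokine signalling suppressor SOCS1, had 7.98, 8.12 and 7.92 in daDREAM and 8.11, 8.15 and 7.57 in wild type, with a difference of 0.06. Its dimmer probe sets differed by 0.48 (interval -0.12 to 1.08) and 0.34 (interval -0.09 to 0.76), so all 3 were positive and none passed.

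Among the SPRY members, the largest class with 30 genes, 13 differences were positive and 17 negative, with a median of -0.01. Trim27, a ligase that acts on the endosomal WASH complex, had 7.13, 7.11 and 7.09 in daDREAM and 7.53, 7.31 and 7.26 in wild type. All daDREAM arrays lay below all wild-type arrays, with a difference of -0.26 (interval -0.53 to 0.02, unadjusted p = 0.0659 and adjusted p = 0.998 by limma). Of its dimmer probe sets, 2 averaged 5 or more and gave -0.18 and -0.12, and all 3 may match several transcripts by their names. Trim41 had 7.16, 7.05 and 6.84 in daDREAM and 7.17, 7.21 and 7.23 in wild type. The nearest daDREAM and wild-type arrays were 0.01 apart, with a difference of -0.19 (interval -0.47 to 0.10), and the other probe set of Trim41 differed by -0.02.

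Trim11, which promotes degradation of the transcription factor Pax6, had 7.11, 7.02 and 7.08 in daDREAM and 7.14, 6.81 and 6.70 in wild type. The highest wild-type array stood above all daDREAM arrays, and the difference was 0.19 (interval -0.14 to 0.51). The further SPRY members with the smallest p on the higher side were Trim60 at 0.23, Trim7 at 0.20 and Trim34a at 0.12, and on the lower side Trim25 at -0.17 and Trim68 at -0.14. Trim80, to which no class was given here, differed by 0.18. All of these overlapped between genotypes. Trim7, Trim34a, Trim25, Trim68 and Trim80 were dim, with means of 3.55 to 4.72.

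Several SPRY members known from antiviral defence had low values in both genotypes. Trim25, which ubiquitinates the RNA sensor RIG-I, had 4.70, 4.66 and 4.54 in daDREAM and 4.82, 4.56 and 5.02 in wild type, all but 1 value below 5. Trim21, a cytosolic antibody receptor, had 4.44, 4.45 and 4.72 in daDREAM and 4.53, 4.70 and 4.65 in wild type, with a difference of -0.09. Trim30a, a negative regulator of Toll-like receptor signalling in mice, had 4.44, 5.15 and 4.46 in daDREAM and 4.70, 4.66 and 4.79 in wild type, with daDREAM replicate 2 the highest of the 6. The 7 genes of the neighbouring run had means of 3.11 to 4.70 and differences of -0.11 to 0.15, 4 positive and 3 negative. No detection call came with the values, so a probe set this dim cannot be told from background. Of the 9 genes with the interferon response element in their window, 5 had a positive and 4 a negative difference, with a median of 0.02, and 0 had an unadjusted p under 0.05.

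The PHD-bromodomain class of chromatin regulators had 4 measured members, all with a mean above 5. Trim28, the corepressor that KRAB zinc finger proteins recruit to silence repeats, had 9.80, 9.78 and 9.71 in daDREAM and 9.91, 9.89 and 9.70 in wild type. Its arrays overlapped, with a difference of -0.07 (interval -0.34 to 0.20), and its other probe set differed by -0.30 (interval -0.70 to 0.10). Trim33, a ligase of SMAD4, had 8.40, 8.37 and 8.21 in daDREAM and 8.40, 8.50 and 8.49 in wild type, with a difference of -0.14 (interval -0.40 to 0.13). Trim24 differed by -0.13 (interval -0.63 to 0.37) and Trim66 by 0.04 (interval -0.66 to 0.75). The arrays of Trim24 ranged over 0.91 in daDREAM and 0.21 in wild type, and those of Trim66 over 1.31 in daDREAM and 0.12 in wild type.

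Among the smaller classes, Trim13, an endoplasmic reticulum membrane ligase, had 6.84, 6.49 and 6.25 in daDREAM and 6.84, 6.94 and 6.76 in wild type. Replicate 1 of daDREAM stood among the wild-type arrays and the other 2 below them, with a difference of -0.32 (interval -0.70 to 0.06), the most negative of the family. Trim44, which lacks a RING and carries a zinc finger of the ubiquitin protease type, had 10.41, 10.17 and 10.13 in daDREAM and 10.32, 10.28 and 10.23 in wild type, with a difference of -0.04 (interval -0.32 to 0.24). The daDREAM arrays lay on both sides of the wild-type ones. A dimmer probe set of Trim44, with a mean of 5.115, differed by 0.21 (interval -0.05 to 0.47) without overlap. Its dimmest differed by -0.11. Trim45, with a filamin domain, differed by 0.09 (interval -0.24 to 0.41), and Trim29, a RING-less member, by -0.30 (interval -0.86 to 0.27) at a dim level.

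The muscle members Trim54 and Trim63, which bind the sarcomere, were dim: Trim54 had 3.89 ± 0.02 in daDREAM and 3.91 ± 0.09 in wild type (SD, n = 3 each), and Trim63 differed by -0.04. Skeletal muscle markers gave a mean level of 4.39 to 4.73 in daDREAM and 4.37 to 4.50 in wild type over 8 genes, of which 7 had a positive difference.

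For most members the range of the 3 daDREAM arrays exceeded the difference between the genotype means. A range of arrays and a difference of means are unlike measures. Trim23, a member with a C-terminal ARF GTPase domain, had 7.73, 6.62 and 6.19 in daDREAM and 6.90, 7.15 and 6.76 in wild type, so daDREAM replicate 1 was the highest and replicate 3 the lowest of the 6. Its range of 1.54 was the widest of the family, against a genotype difference of -0.09 (interval -0.89 to 0.71), and its second probe set of a mean over 5 ordered the daDREAM arrays the same way. Trim66, a chromatin regulator best known from testis, had 6.39, 5.27 and 5.08 in daDREAM and 5.59, 5.55 and 5.47 in wild type. Its high value was again daDREAM replicate 1, while the wild-type arrays lay within 0.12.

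Over the family, the range was wider within daDREAM than within wild type for 38 of 58 genes, 65.5%, beside 70.7% of all genes, and the median SD was 0.21 in daDREAM and 0.13 in wild type. A gap of at least 0.5 between daDREAM replicates 1 and 3 was present at 17 of 58 genes, 29.3% beside 32.2% of all genes. By the brightest probe set, replicate 1 was the higher at 8 genes, Trim9, Trim13, Trim23, Trim24, Trim35, Trim59, Trim62 and Trim66, and all 8 had a mean of at least 5. Other probe sets that bright went the other way for Trim35, Trim59 and Trim62, with replicate 1 minus replicate 3 down to -0.24, -0.60 and -0.51. Those of Trim9, Trim23 and Trim24 kept the direction. Replicate 3 was the higher at 9 genes, Trim10, Trim15, Trim29, Trim30d, Trim36, Trim40, Trim60, Trim69 and Trim75, of which 4 had a mean of at least 5. Wild-type replicate 2 exceeded wild-type replicate 3 at all 8 genes higher in daDREAM replicate 1 and at 0 of the 9 higher in replicate 3, beside 83.1% and 11.6% of all genes with such gaps. The hybridization control mean was 9.47, 10.14 and 10.47 on daDREAM replicates 1, 2 and 3 and 8.99, 8.99 and 9.48 on wild-type replicates 1, 2 and 3. The part of array quality in these gaps was not tested.

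**Figure D3:**
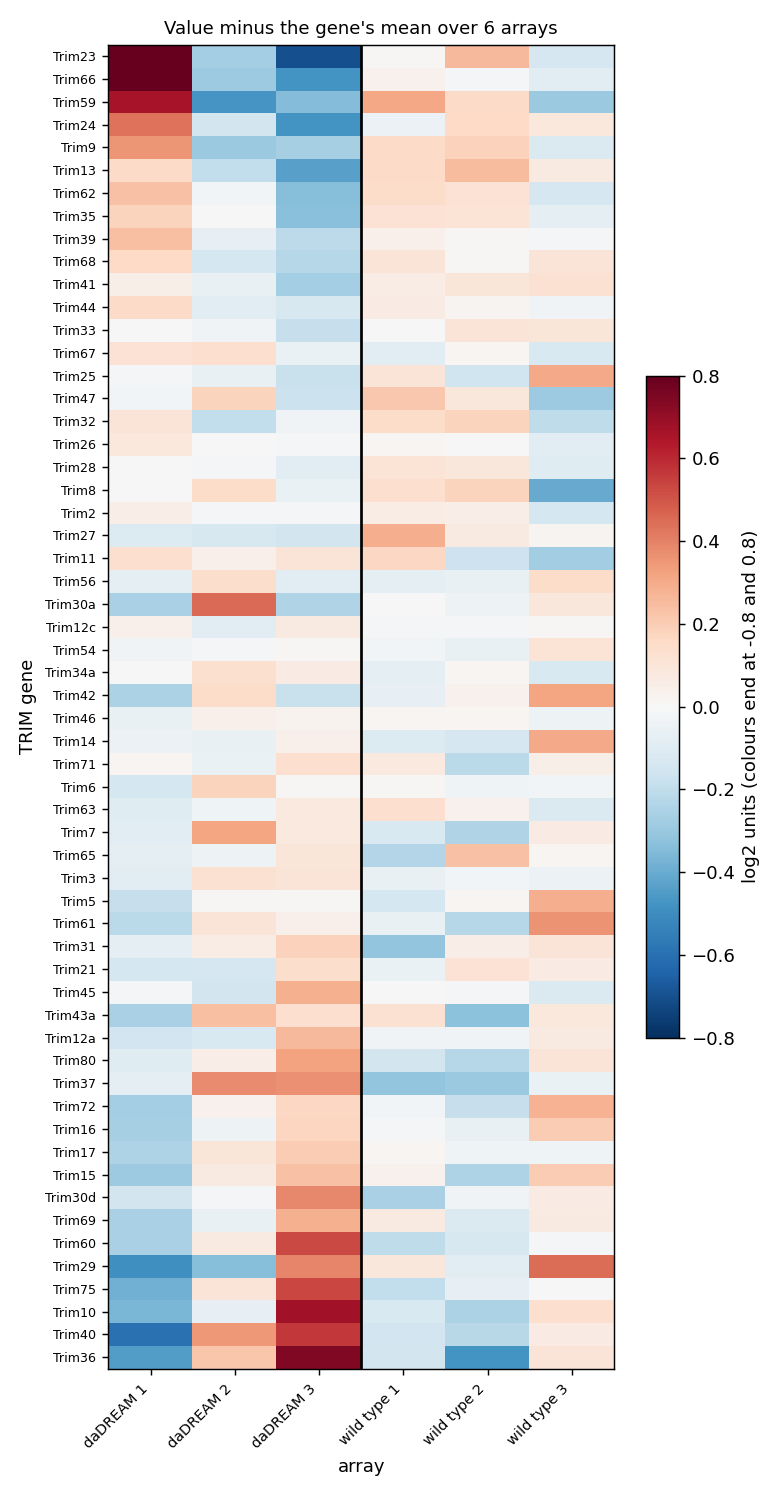
Value minus the gene's mean over the 6 arrays (colour, log2 units) for the 58 TRIM genes (rows, ordered from those highest in daDREAM replicate 1 relative to replicate 3 at the top) on the daDREAM arrays at the left and the wild-type arrays at the right. The top 8 rows are at least 0.5 higher in daDREAM replicate 1 than in replicate 3 and the bottom 9 rows at least 0.5 lower; no block of rows separates the genotypes.

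DREAM binds a downstream regulatory element whose core is GTCA. In the 50 bases after the transcript start that core, searched on both strands, was present at 11 of 47 TRIM genes, 23.4%, beside 30.5% of all genes with a window. The 11 genes, among them Trim2, Trim44 and Trim46, differed by -0.05 to 0.12 with a median of -0.01, and the other 36 had a median of -0.02. So short a core occurs often, and its presence says nothing of binding.

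Ubiquitin reaches TRIM ligases through activating (E1) and conjugating (E2) enzymes, of which 31 were measured. The adjusted limma test gave 0 calls among them, and 7 had a positive and 24 a negative difference, with a median of -0.10. Ube2g2, an E2 of endoplasmic reticulum degradation, stood at 8.02 ± 0.09 in daDREAM and 8.31 ± 0.12 in wild type (SD, n = 3 each), a difference of -0.28 (interval -0.56 to -0.01) with no overlap. It was the only 1 of the 31 without overlap, 3.23% beside 5.59% of all genes. Ube2v2, an E2 variant without catalytic activity that builds K63 chains with Ube2n, differed by -0.46 (interval -1.06 to 0.15), and Ube2e3, the brightest, by -0.20.

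Of 29 measured partners and substrates of TRIM proteins, 0 passed, with 7 positive and 22 negative differences and a median of -0.06. Bcl2l11, which encodes the pro-apoptotic protein Bim and is a reported substrate of Trim2, stood at 6.57 ± 0.20 in daDREAM and 6.92 ± 0.10 in wild type (SD, n = 3 each), a difference of -0.35 (interval -0.67 to -0.03) without overlap. Smad4, the substrate of Trim33, differed by -0.35 (interval -0.71 to 0.01), also without overlap. Snap25, a synaptic partner of Trim9 and the brightest of the list, differed by 0.09.

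Nucleic acid sensing and interferon response genes numbered 20, of which 0 passed, with 14 positive and 6 negative differences and a median of 0.04. Stat2, a transducer of interferon signals, stood at 7.56 ± 0.08 in daDREAM and 7.22 ± 0.17 in wild type (SD, n = 3 each), a difference of 0.34 (interval 0.04 to 0.64) without overlap. Irf9, its DNA-binding partner, differed by 0.31 (interval -0.11 to 0.73), and Irf3, the brightest, by -0.05. Microglial markers, of cells rich in these genes, had a mean level of 6.20 to 6.27 in daDREAM and 5.99 to 6.11 in wild type over 8 genes, and their part in these values was not tested.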

How the data were processed

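The authors deposited 1 log2 value per probe set and array, made with RMA in the affy package per the submitters' processing notes, with versions not given in the sources used here. RMA forces the arrays' probe distributions to match, which hides a change shared by most genes and shrinks differences of dim probe sets. Genotype and replicate number come from the sample titles, and per the series' design text the arrays are independent biological replicates. After 64 control probe sets were left out, 45037 were fitted by lmFit and eBayes of limma 3.58.1 under R 4.3.3, 2-sided and without covariates, with Benjamini-Hochberg adjustment over all of them and a threshold of 0.05. Gene names are those of the platform annotation, and all 58 TRIM symbols are unchanged in RefSeq. A further 5 probe sets annotated to a TRIM gene and to another gene were left out. The fit was tested on simulated data.

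The members and gene lists were chosen with earlier results of these data known. Named TRIM genes are all COS-FN3 and NHL members, the brightest of each other class, the 8 with the smallest p in each direction, the 3 with the widest range and the 3 with the widest probe set spread. In the other lists they are the 2 with the smallest p and the brightest. Trim21, Trim24, Trim30a, Trim63, Rara, Khnyn, Ifit3, Kcnip3 and the genes named in runs and motif counts were added after their values were seen. Alternatives were a replicate block, the hybridization control level as a covariate, median centring, renewed quantile normalization, a trended robust prior, limits on mean level, probe set rules and each array left out. The number of arrays limits the precision.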

Additional observations from a re-analysis of the deposited data

How the results depend on the processing

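Limma gave 0 probe sets with an adjusted p under 0.05 in the main setting, with 817 at an unadjusted p under 0.05, and 0 under each alternative run on probe sets; no other test was run. The count of TRIM genes with an unadjusted p under 0.05 was 1, and it was 2 after renewed quantile normalization (Trim13 and Trim37, against 2.63% of all genes), 14 when the hybridization control level entered the fit (against 24.3% of all genes), 0 with the probe sets of a gene averaged (against 1.85%) and 0 of 48 genes with only probe sets not marked for several transcripts (against 1.44%). Leaving out 1 array gave 0 to 11, the highest without daDREAM replicate 1. Genes without overlap numbered 2 (Trim27 and Trim41), against 5.59% of all genes. With marked probe sets left out there was 1 of 48 (Trim41), against 5.30%. After quantile normalization there were 3 (Trim13, Trim41 and Trim67), against 8.32%. Median centring gave 2 (Trim27 and Trim37), against 5.13%, and averaged probe sets gave 3 (Trim25, Trim62 and Trim7), against 6.13%. Genes without overlap numbered 5 to 23 when 1 array was left out, where the share over all genes was 8.93% to 34.0%. The highest count was without daDREAM replicate 1. The family median of -0.01 was -0.07 with a mean of at least 6, which keeps 23 genes, beside -0.03 over all genes that bright. It was -0.060 with the hybridization control level, beside 0.02 over all genes, and without 1 array it ran from -0.03 to 0.02. Positive differences numbered 26 of 58, 24 after quantile normalization, 22 after median centring and 22 with the hybridization control level, but 31 with probe sets averaged and 32 without daDREAM replicate 1 or without wild-type replicate 3. Of 30 named TRIM genes 22 changed sign under at least 1 alternative, and the lowest adjusted p of any was 0.0852. The cause of these shifts was not tested.

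With the replicate number as a replicate block, 0 probe sets passed and 1 TRIM gene, Trim37, had an unadjusted p under 0.05; no call changed. Deviations of same-numbered arrays correlated at 0.12, -0.28 and 0.32 for numbers 1, 2 and 3, and those of differently numbered arrays at -0.43 to 0.49. With 3 arrays per genotype, whose deviations sum to 0, these values cannot show whether the numbers pair the arrays.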

Other observations

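Several TRIM genes lie next to each other in the order of protein-coding genes. Trim26, Trim15, Trim10, Trim40 and Trim31 follow each other with no other protein-coding gene between them, and all 5 had a positive difference, from 0.01 to 0.21. Of them, Trim40 had 5.32, 6.26 and 6.48 in daDREAM and 5.76, 5.69 and 5.98 in wild type, with daDREAM replicate 1 the lowest and replicates 2 and 3 the highest. Trim10 had 4.67, 4.97 and 5.71 in daDREAM and 4.91, 4.78 and 5.17 in wild type, with the same array lowest and daDREAM replicate 3 the highest. All 5 overlapped between genotypes and none passed the adjusted limma test. Trim15 and Trim31 were dim, with means of 4.04 and 3.41. Trim15, Trim10 and Trim40 were at least 0.5 higher in daDREAM replicate 3 than in replicate 1. This run was noticed after its values were seen. Trim75, Trim60 and Trim61, likewise next to each other, differed by 0.17, 0.23 and -0.05.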
